A study of Mus musculus with 8 samples.

Results

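The subject is the nuclear genes for subunits of the oxidative phosphorylation machinery. They were taken by symbol from the gene tables, as all entries named Nduf followed by a, b, c, s or v and a number, Sdha to Sdhd, names starting with Uqcr, Cyc1, Cycs, names starting with Cox and a digit between 4 and 8, and names starting with Atp5 and a letter. The rule found 86 of the 23469 gene symbols. Of these, 73 reached 1 RPKM (read density corrected for transcript length and library depth) in at least 2 of 4 libraries and were tested, among 6446 tested genes. They were 33 of 37 genes named for complex I, 4 of 4 of complex II, 9 of 9 of complex III, 11 of 18 of complex IV and 16 of 17 of complex V, and the single gene for cytochrome c was not tested.

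Oxidative phosphorylation is the last stage of respiration in the mitochondrial inner membrane. Complexes I and II take electrons from NADH and succinate, complex III passes them to cytochrome c, complex IV hands them to oxygen, and complex V (ATP synthase) makes ATP from the proton gradient that complexes I, III and IV build. Some core subunits of complexes I, III, IV and V are encoded in mitochondrial DNA. The symbol rule does not take them, and they were not analysed here.

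RNA was sequenced from germinal centre (GC) B cells, the antigen-activated B cells that divide, mutate and are selected within lymphoid follicles. The tested mice were Irf8flox/flox (Irf8 cKO), and the control mice were Irf8+/+ (Ctrl). Both were C57BL/6, carried 1 Cre allele that is active in B cells, had received NP-KLH, a protein carrying the NP hapten, and gave B220+ FAShigh GL7high cells on day 13. Each of 2 experiments gave 1 Irf8 cKO and 1 Ctrl library, from RNA amplified before library making, and how many animals stood behind a library is not given in the labels. Irf8, a transcription factor of the interferon regulatory factor family, measured 20.6 and 11.6 RPKM in the libraries labelled Irf8 cKO, against 14.5 and 14.9 RPKM in Ctrl. Pairs of values are given throughout for experiment 1 and then experiment 2. This RPKM is summed over the whole transcript, so it does not check a deletion of part of the gene, and the groups are called by their labels.

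All 14 GC B cell markers reached 1 RPKM in some library, and their summed level was 423.2 and 294.9 RPKM in the libraries labelled Irf8 cKO, against 555.9 and 509.5 RPKM in Ctrl. Of 7 T cell markers only Lck reached 1 RPKM and Cd3g was at 0, and the 6 erythroid markers summed to at most 1.61 RPKM in any library. Of 8 myeloid markers 3 reached 1 RPKM and Cd14 was at 0, with sums of 17.8 and 2.63 RPKM in the libraries labelled Irf8 cKO, against 65.9 and 7.77 RPKM in Ctrl. The number of genes at 1 RPKM or more was 6171 and 4845 in the libraries labelled Irf8 cKO, against 6566 and 6433 in Ctrl. Rn45s, the ribosomal RNA precursor, measured 8589 and 16716 RPKM in the libraries labelled Irf8 cKO, against 9085 and 5887 RPKM in Ctrl. The total counts of the libraries are not given in the tables, so depth is unknown. Myeloid RNA and ribosomal RNA moved with the libraries, and their part in the values below was not tested.

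Promoter sequences of 4 subunit genes are shown because Atp5k and Ndufb6 were the 2 members that passed the test, Cox7a2 had a low ratio in both experiments, and Cox6a1, the most abundant complex IV gene, carried the same motifs as Atp5k. Each runs 5′ to 3′ on the strand of the gene, from 200 bases before to 30 after the RefSeq start, in GRCm38.p6. The RefSeq starts lay between 0 and 53 bases from those in the deposited tables. Capitals mark matches to the core of nuclear respiratory factor 1 (NRF1), GCGCATGCG, and to the ETS core CCGGAAG of GABPA, on either strand.
Atp5k, chr5:108434370-108434599, minus strand: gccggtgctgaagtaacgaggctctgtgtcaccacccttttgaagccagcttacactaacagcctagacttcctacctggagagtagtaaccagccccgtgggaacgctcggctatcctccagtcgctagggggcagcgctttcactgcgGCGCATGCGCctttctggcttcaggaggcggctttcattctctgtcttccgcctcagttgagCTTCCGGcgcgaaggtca
Ndufb6, chr4:40279392-40279621, minus strand: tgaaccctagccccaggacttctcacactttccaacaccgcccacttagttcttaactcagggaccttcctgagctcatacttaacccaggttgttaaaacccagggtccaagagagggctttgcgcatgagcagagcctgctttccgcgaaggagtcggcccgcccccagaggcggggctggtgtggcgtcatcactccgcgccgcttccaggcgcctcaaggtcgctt
Cox7a2, chr9:79759824-79760053, minus strand: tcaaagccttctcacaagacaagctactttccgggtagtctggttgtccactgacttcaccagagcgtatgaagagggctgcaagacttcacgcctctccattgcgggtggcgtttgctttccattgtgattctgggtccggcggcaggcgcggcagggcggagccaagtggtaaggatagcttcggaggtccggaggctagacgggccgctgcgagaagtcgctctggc
Cox6a1, chr5:115348929-115349158, minus strand: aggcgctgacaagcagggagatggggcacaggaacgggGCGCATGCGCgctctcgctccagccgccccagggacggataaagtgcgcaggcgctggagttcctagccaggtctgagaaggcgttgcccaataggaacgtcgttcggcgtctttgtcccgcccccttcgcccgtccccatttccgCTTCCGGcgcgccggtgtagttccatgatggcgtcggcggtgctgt

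NRF1 and GABPA are transcription factors known for binding promoters of respiratory genes. Windows from 250 bases before to 50 after the start were matched for 70 of the 86 members and for 5128 other tested genes. The NRF1 core lay in 12.9% of the member windows, against 4.6% of the other tested genes' windows. YY1, another factor known at such promoters, was searched as AANATGGCG (N is any base) and matched in 14.3% of member windows, against 7.64%. The ETS core matched in 21.4% of member windows, against 24.3%. Motifs bound by IRF factors had similar shares in both sets. The ETS-IRF composite GAANNGAAA matched in 7.14%, against 6.28%, and the IRF element AAANNGAAA in 7.14%, against 8.07%. Matches of these 2 motifs overlapped each other in 74 of all 17715 windows, and the ETS core overlapped the composite in 13. All motifs were searched on both strands, and these shares are descriptions of letters in a window.

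Subunit levels were lowest in the library labelled Irf8 cKO 2 and highest in Ctrl 1. The tested members had a median of 5.14 and 3.27 RPKM in the libraries labelled Irf8 cKO, against 8.13 and 5.18 RPKM in Ctrl. Summed over all 86 members, the level was 583.8 and 326.4 RPKM in the libraries labelled Irf8 cKO, against 945.6 and 564.5 RPKM in Ctrl. In the sum Irf8 cKO 1 lay just above Ctrl 2, so the groups overlapped, while the medians did not. In this bulk RNA, fewer cells of a type and less RNA per cell cannot be told apart.

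**Figure D1:**
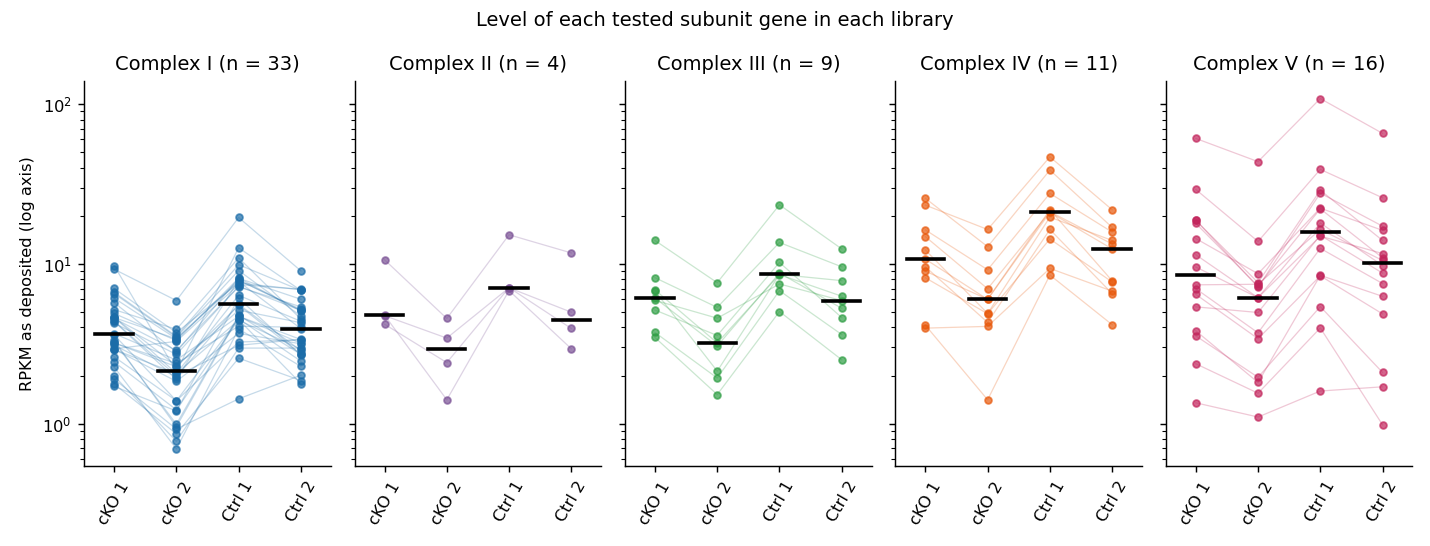
RPKM of each tested subunit gene (points, log axis) in each library, by complex, with lines joining a gene and black bars at the median. In every complex the median is lowest in the library labelled Irf8 cKO 2 (2.12 RPKM in complex I and 5.99 RPKM in complex IV) and highest in Ctrl 1 (5.58 and 21 RPKM).

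The whole table moved the same way. As deposited, the median log2 ratio of Irf8 cKO over Ctrl, on the log2(RPKM + 1) scale used for every ratio here, was -0.64 for the members and -0.35 for all 6446 tested genes. All 73 tested members lay below 0, where 92.4% of all tested genes did. After scaling the libraries so that the tested genes had a median ratio near 0 (0.0035), the member median was -0.19, and 58 of 73 members lay below 0, against 49.3% of all tested genes. Both versions are used below, as "deposited" and "after scaling". A gene's ratio with no setting named is as deposited.

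By limma with Benjamini-Hochberg adjustment over all 6446 genes at a threshold of 0.05, 2 of 73 members were lower in the libraries labelled Irf8 cKO as deposited, Atp5k and Ndufb6, and 0 were higher. Over all tested genes 1.09% were called lower and 0.0931% higher. At an unadjusted p under 0.05 there were 32 members (43.8%), all of them lower, where 18.6% of all tested genes were lower at that p. After scaling 0 members were called, where the share of all genes was 0.0465% lower and 0.0155% higher, and 10 members (13.7%) had an unadjusted p under 0.05, all of them lower, against 10.5% of all genes in either direction and 4.58% lower. Without a variance trend 14 members were called lower as deposited, against 4.30% of all genes, and leaving out Irf8 cKO 1, with no block, gave 30, against 22.5%. With libraries scaled to their summed RPKM without Rn45s the count was 2, Atp5k and Ndufb6, against 0.652%. No label ties the libraries of a group to separate animals, so these p-values rest only on spread between these libraries, which may be technical. For the 2 calls as deposited, that spread came from the trend over genes of similar level, not from each gene's own values.

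Complex V makes ATP by rotation, with a ring in its membrane part (Fo) that drives a stalk turning inside the catalytic head (F1). Atp5k encodes subunit e, a small membrane subunit of Fo known for its place where ATP synthase dimers meet. The gene spans chr5:108433253-108434378 of mm10 on the minus strand (RefSeq transcript NM_007507). It had 3.81 and 1.81 RPKM in the libraries labelled Irf8 cKO, against 8.47 and 6.26 RPKM in Ctrl. Both Irf8 cKO values lay below both Ctrl values. The log2 ratio was -1.17 ± 0.31 (SE, adjusted p = 0.0249, limma), the lowest of all tested members. After scaling it was -0.77 ± 0.15 (adjusted p = 0.217). The 2 experiments then gave -0.74 and -0.79. Over the alternatives that were run, the ratio of Atp5k lay between -1.56 and -0.63 and its adjusted p between 0.00119 and 1.00. The call ended after scaling, with the length trend removed (-0.65), and, at the same ratio of -1.17, without the block (adjusted p = 0.357) or without the filter (adjusted p = 0.187). Fits that leave out a library also lack the block. As deposited they gave -1.56 without Irf8 cKO 1, where the call held, -0.79 without Irf8 cKO 2, -0.98 without Ctrl 1 and -1.36 without Ctrl 2. The limma fit without Ctrl 1 called 0 of all 6446 genes, with 38 at an unadjusted p under 0.05. The GENCODE annotation holds 1 pseudogene named after Atp5k, with the treatment of such copies in counting not given in the sources used here.

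Subunit c, which forms the rotating ring, is encoded by 3 genes whose mature protein is the same. Atp5g1 had 5.38 and 4.96 RPKM in the libraries labelled Irf8 cKO, against 15.1 and 8.75 RPKM in Ctrl. Its groups did not overlap, and the ratio was -1.02 ± 0.33 (SE, adjusted p = 0.0997, limma) as deposited and -0.56 ± 0.25 (adjusted p = 0.483) after scaling. The difference after scaling stood in experiment 1 (-1.08) and was near 0 in experiment 2 (-0.03). Atp5g3, the most abundant of the 3, had 17.9 and 7.25 RPKM in the libraries labelled Irf8 cKO, against 22.1 and 10.9 RPKM in Ctrl. Atp5g2 had 3.54 and 1.95 RPKM in the libraries labelled Irf8 cKO, against 5.40 and 2.09 RPKM in Ctrl. Both overlapped between groups, with ratios of -0.41 and -0.28 as deposited that turned to 0.07 and 0.10 after scaling. Their summed level was 26.8 and 14.2 RPKM in the libraries labelled Irf8 cKO, against 42.5 and 21.8 RPKM in Ctrl.

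The fitted ratios of the 5 genes of F1 lay close together, between -0.75 and -0.64 as deposited. By experiment they were less close, from -1.05 to -0.41 in experiment 1 and from -0.87 to -0.45 in experiment 2. Atp5b, the catalytic beta subunit, was the most abundant gene of the whole set, at 60.9 and 43.6 RPKM in the libraries labelled Irf8 cKO, against 108.2 and 65.5 RPKM in Ctrl. Atp5a1, the alpha subunit, had 29.2 and 13.8 RPKM in the libraries labelled Irf8 cKO, against 39.0 and 25.9 RPKM in Ctrl. Atp5c1, the gamma subunit of the central stalk, had 14.4 and 8.67 RPKM in the libraries labelled Irf8 cKO, against 22.3 and 16.2 RPKM in Ctrl. As deposited, values of Atp5b and Atp5c1 did not overlap between groups, as for 44.7% of all tested genes, and those of Atp5a1 did. After scaling Atp5b overlapped too, at 57.3 and 66.6 in the libraries labelled Irf8 cKO, against 85.2 and 57.9 in Ctrl. Values of Atp5c1 still did not. None of the 5 passed as deposited or after scaling. The scaled ratios lay between -0.27 and -0.14. By experiment after scaling, Atp5b was at -0.56 and 0.20 and Atp5e at -0.80 and 0.26, while the other 3 were below 0 in both.

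Outside F1, the 10 other subunit genes tested ranged more widely, between -1.17 and -0.10 as deposited. Atp5o, which joins F1 to the stator stalk, had 11.4 and 6.14 RPKM in the libraries labelled Irf8 cKO, against 18 and 9.76 RPKM in Ctrl (log2 ratio -0.60 ± 0.34, SE, adjusted p = 0.292, limma). Atp5l, the membrane subunit g that neighbours subunit e, stood at the other end. It had 2.37 and 1.55 RPKM in the libraries labelled Irf8 cKO, against 3.97 and 0.983 RPKM in Ctrl, with a ratio of -0.56 in experiment 1 and 0.36 in experiment 2. The name pattern also took Atp5s and Atp5sl, which are not counted as subunits. Without these and the isoforms of other tissues, the member median stayed at -0.64 as deposited and -0.19 after scaling (72 genes).

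Complex I has a peripheral arm that oxidizes NADH and a membrane arm that pumps protons. Ndufb6, an accessory subunit of the membrane arm, spans chr4:40270663-40279368 of mm10 on the minus strand (RefSeq transcript NM_001033305). It had 1.71 and 1.2 RPKM in the libraries labelled Irf8 cKO, against 6.08 and 2.69 RPKM in Ctrl. The groups did not overlap, and Ctrl 1 stood well above the other 3 libraries. The log2 ratio was -1.07 ± 0.28 (SE, adjusted p = 0.0250, limma) as deposited and -0.70 ± 0.22 (adjusted p = 0.398) after scaling. By experiment the scaled ratio was -1.15 and -0.26. Over the alternatives, the adjusted p of Ndufb6 lay between 0.00445 and 1.00. The call also ended with the length trend removed (-0.58) and, at the same ratio of -1.07, without the block (adjusted p = 0.253) or without the filter (adjusted p = 0.242). With a library left out and no block, the deposited ratio was -1.22 without Irf8 cKO 1, where the call held, -0.91 without Irf8 cKO 2, -0.59 without Ctrl 1 and -1.54 without Ctrl 2. In that annotation exons of Ndufb6 overlap those of Smim27 on the other strand, with no statement on strand in the sources used here.

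The 7 nuclear core subunits of complex I, which carry the electrons, had a median of -0.66 as deposited and -0.23 after scaling. Medians of the 26 tested accessory subunits, taken by name and with Ndufa4 included, were -0.50 and -0.12. All 7 lay below 0 in both experiments as deposited, and 6 of 7 did after scaling. Ndufv1, which binds NADH and the flavin, had 1.99 and 0.775 RPKM in the libraries labelled Irf8 cKO, against 2.97 and 2.97 RPKM in Ctrl (-0.78 ± 0.27, SE, adjusted p = 0.125, limma). Ndufs8, an iron-sulphur subunit, had 2.94 and 3.27 RPKM in the libraries labelled Irf8 cKO, against 7.42 and 6.92 RPKM in Ctrl (-0.99 ± 0.31, adjusted p = 0.0828). It was named after its values were seen. For both genes the 2 Ctrl libraries were nearly equal and the libraries labelled Irf8 cKO lay below them.

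Ndufs7, at the site where quinone is reduced, had a ratio of -0.60 as deposited and -0.20 after scaling. Ndufs1, the large iron-sulphur subunit, had 2.92 and 1.84 RPKM in the libraries labelled Irf8 cKO, against 3.67 and 3.16 RPKM in Ctrl, and its ratio after scaling was -0.02. Neither passed. Among accessory subunits, Ndufb8 was at -0.65 as deposited and -0.21 after scaling, and Ndufa9 at -0.42 and -0.03. Ndufb7 had the highest ratio of the complex. It measured 4.37 and 1.99 RPKM in the libraries labelled Irf8 cKO, against 3.09 and 3.37 RPKM in Ctrl, so the groups overlapped and the experiments went opposite ways (0.39 and -0.55). After scaling it was the highest of all tested members (0.30 ± 0.18, SE, adjusted p = 0.607, limma). Ndufa4, the most abundant gene with a complex I name, is now counted with complex IV. It had 9.25 and 5.89 RPKM in the libraries labelled Irf8 cKO, against 19.5 and 9.03 RPKM in Ctrl (-0.77 ± 0.34, adjusted p = 0.232).

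Complex II is succinate dehydrogenase, shared with the tricarboxylic acid cycle. Sdha, its flavoprotein, had 10.6 and 4.55 RPKM in the libraries labelled Irf8 cKO, against 15.2 and 11.7 RPKM in Ctrl. Its groups did not overlap, and the ratio was -0.83 ± 0.34 (SE, adjusted p = 0.204, limma) as deposited and -0.37 ± 0.17 (adjusted p = 0.485) after scaling. The iron-sulphur subunit Sdhb was at -0.46 and -0.03, and the membrane anchors Sdhc and Sdhd at -0.57 and -0.20 and at -0.59 and -0.17. None of the 4 passed. The median of the complex was -0.58 as deposited and -0.19 after scaling.

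Complex III moves electrons from quinol to cytochrome c. Cyc1, the cytochrome c1 subunit that hands them over, had 6.77 and 2.13 RPKM in the libraries labelled Irf8 cKO, against 8.58 and 7.85 RPKM in Ctrl. The low value was in the library labelled Irf8 cKO 2, and the ratio was -0.30 in experiment 1 and -1.50 in experiment 2. The fit gave -0.90 ± 0.32 (SE, adjusted p = 0.141, limma) as deposited and -0.49 ± 0.22 (adjusted p = 0.483) after scaling. Uqcrfs1, the Rieske iron-sulphur protein, had 3.72 and 1.93 RPKM in the libraries labelled Irf8 cKO, against 6.79 and 3.61 RPKM in Ctrl. The core proteins Uqcrc1 and Uqcrc2 both had a ratio of -0.54 as deposited. Uqcrh, the hinge protein and most abundant of the 9, had 14 and 7.62 RPKM in the libraries labelled Irf8 cKO, against 23.4 and 12.4 RPKM in Ctrl. Each of these 4 genes overlapped between groups, and none of the 9 passed. Uqcr11, a small subunit, was highest, at -0.30 as deposited and 0.15 after scaling. Cycs, the cytochrome c gene itself, fell short of the expression filter, with 0.855 and 0.479 RPKM in the libraries labelled Irf8 cKO, against 1.59 and 0.840 RPKM in Ctrl.

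Complex IV, cytochrome c oxidase, surrounds a catalytic core made in mitochondria with nuclear-encoded subunits, several of which exist as paired isoforms. Cox7a2, the widely expressed form of subunit 7a, had 4.13 and 1.41 RPKM in the libraries labelled Irf8 cKO, against 8.51 and 4.16 RPKM in Ctrl. The groups met closely, at 4.13 in the library labelled Irf8 cKO 1 and 4.16 RPKM in Ctrl 2. The ratio was -1.0 ± 0.31 (SE, adjusted p = 0.0673, limma) as deposited and -0.61 ± 0.15 (adjusted p = 0.289) after scaling. By experiment the scaled ratio was even, at -0.66 and -0.57. Cox6c, a small nuclear-encoded subunit, had 12.2 and 4.89 RPKM in the libraries labelled Irf8 cKO, against 19.6 and 14 RPKM in Ctrl. Its ratio was -1.0 ± 0.34 (adjusted p = 0.125) as deposited and -0.53 ± 0.17 (adjusted p = 0.399) after scaling, and its groups did not overlap.

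Cox6a1, the most abundant gene of the complex, had 23.3 and 16.4 RPKM in the libraries labelled Irf8 cKO, against 46.7 and 21.8 RPKM in Ctrl. The values overlapped, and the scaled ratio went opposite ways in the experiments, -0.72 and 0.37. Cox4i1, the subunit 4 isoform of most tissues, was at -0.72 in both experiments as deposited and at -0.47 and 0.01 after scaling. Cox5a and Cox5b were at -0.61 and -0.65 as deposited and at -0.15 and -0.19 after scaling. Cox8a, at 25.7 and 12.8 RPKM in the libraries labelled Irf8 cKO, against 38.6 and 16.9 RPKM in Ctrl, had a ratio of 0.02 after scaling. None of the 11 genes of the complex passed.

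**Figure D2:**
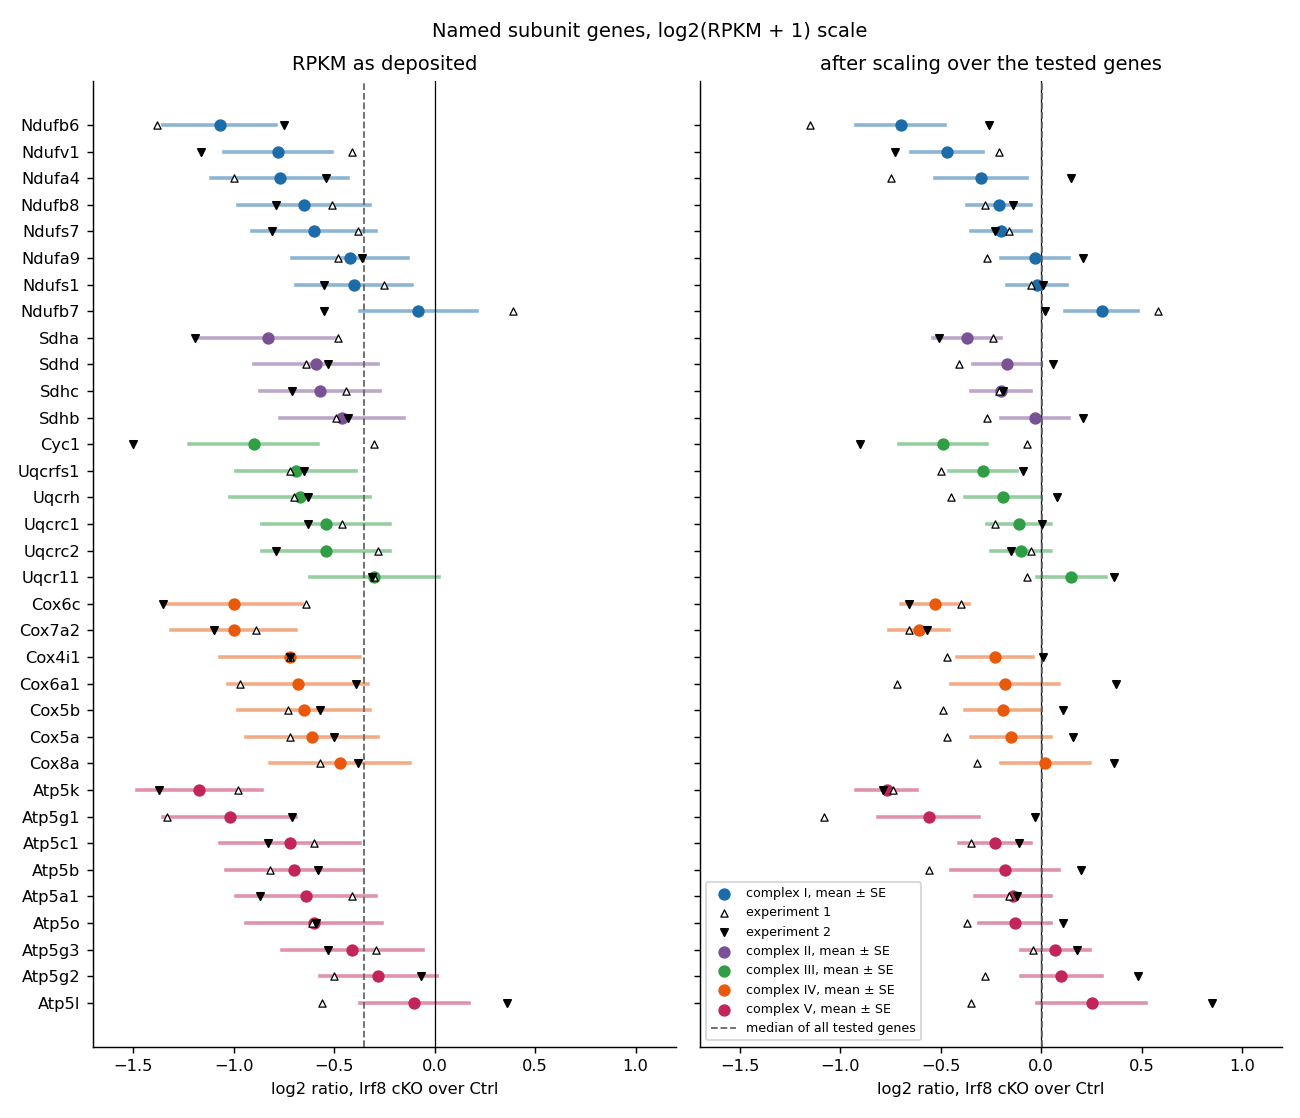
Log2 ratio of Irf8 cKO over Ctrl for 34 named subunit genes, by complex, as deposited (left) and after scaling (right). Filled points and bars are the mean and SE of the limma fit, triangles the 2 experiments, and the dashed line the median of all tested genes (-0.35 and 0.0035). All 34 points lie below 0 as deposited, and Atp5k is lowest in both panels (-1.17 and -0.77).

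Isoforms known from other tissues were at or near 0. Cox4i2, Cox6a2, Cox6b2, Cox7a1, Cox7b2, Cox8b, Cox8c and Ndufa4l2 did not reach 1 RPKM in 2 libraries, and the highest value among them was 0.223 RPKM, of Cox7a1 in Ctrl 1. Cox7b2 and Cox8c were listed at 0 in every library. Atp5s, Ndufs5, Ndufa11 and Ndufb4 also missed the filter. Just outside it, Ndufa11 had 0.909 and 0.673 RPKM in the libraries labelled Irf8 cKO, against 1.91 and 0.965 RPKM in Ctrl, and Ndufb4 had 0.922 and 0.343 against 1.47 and 0.625 RPKM. Just inside it, Ndufb2 had 1.90 and 0.925 RPKM in the libraries labelled Irf8 cKO, against 1.43 and 2.01 RPKM in Ctrl. No tested member passed the filter through the Ctrl libraries alone, where 290 of all 6446 tested genes did.

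As deposited and after scaling, the difference from the rest of the transcriptome stood mostly in experiment 1. With the length trend removed, as given below, the 2 experiments were nearer each other. As deposited, the member median was -0.56 in experiment 1, where all tested genes had -0.18, and -0.63 in experiment 2, where all tested genes had -0.51. As deposited, 71 of 73 members lay below 0 in experiment 1, against 74.5% of all tested genes, and 72 of 73 in experiment 2, against 94.0%. Members thus lay -0.38 from all genes in experiment 1 and -0.12 in experiment 2. After scaling the distances were -0.34 and -0.04. In experiment 1, 68 of 73 members lay below 0 after scaling, against 48.9% of all tested genes. In experiment 2 it was 37 of 73, against 48.1%. With 1 library of a group in each experiment, this difference between experiments has no replicate check.

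Members lower in both experiments numbered 70 of 73 as deposited, where 71.2% of all tested genes were, and 34 of 73 after scaling, against 27.3%. Groups without overlap, with both Irf8 cKO values below both Ctrl values, were seen in 31 of 73 members as deposited, which is 42.5%, against 44.7% of all tested genes. That share is near the background. After scaling it was 17 members (23.3%), against 15.4% of all genes, and 1 member (1.37%) had both Irf8 cKO values above both Ctrl values, against 15.7%. Across the 73 members the deposited ratios of the 2 experiments correlated at r = -0.0124, and across all tested genes at 0.265. These points share libraries and normalization, so the values are descriptions.

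**Figure D3:**
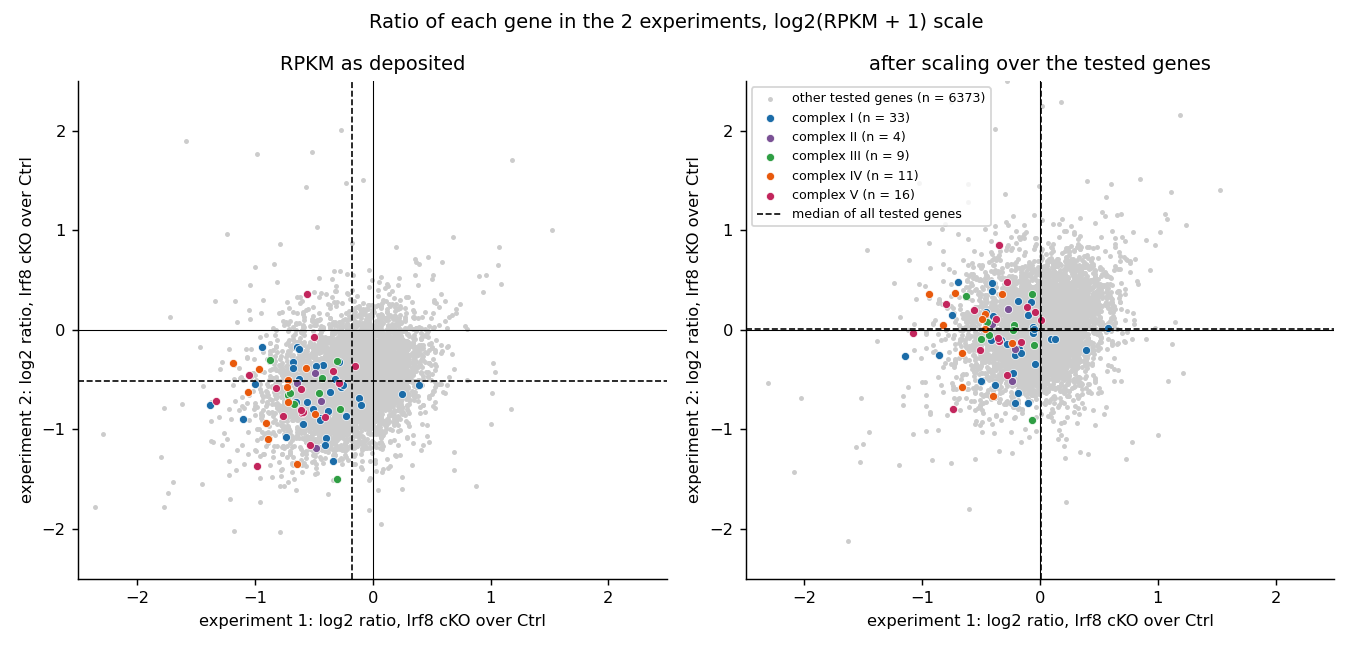
Log2 ratio of Irf8 cKO over Ctrl in experiment 1 (x axis) and experiment 2 (y axis) for each tested gene, as deposited (left) and after scaling (right), with members coloured by complex and dashed lines at the medians of all tested genes. The axes stop at 2.5 on either side and leave out 4 genes. After scaling the members lie left of the middle (median -0.33) but are spread evenly in height (median -0.03).

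The median of every complex showed this pattern, and those of complexes IV and V most. In experiment 1 as deposited, the distance of the complex median from all genes was -0.26 for complex I, -0.31 for II, -0.28 for III, -0.56 for IV and -0.42 for V. In experiment 2 the distances were -0.13, -0.11, -0.12, -0.10 and -0.14 in the same order. After scaling, the fitted medians were -0.15, -0.19, -0.14, -0.23 and -0.20. The 7 core subunits of complex I went the other way, at -0.23 in experiment 1 and -0.36 in experiment 2 as deposited. After scaling these core subunits lay -0.22 and -0.26 from all genes. Differences between complexes were not tested.

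Seen as a share, all 86 members made up 1.62% and 1.40% in the libraries labelled Irf8 cKO, against 2.01% and 1.48% in Ctrl. The share is of the summed RPKM of all genes but Rn45s. Complex IV held 0.383% and 0.331% in the libraries labelled Irf8 cKO, against 0.521% and 0.335% in Ctrl. Complex V held 0.606% and 0.545%, against 0.752% and 0.563%. Ctrl 1 stood apart from the other 3 libraries, which lay close together. It did not for the 7 core subunits of complex I, with 0.0776% and 0.0774% in Ctrl. Their shares were 0.0666% and 0.0566% in the libraries labelled Irf8 cKO. Without Ctrl 1, in a fit without the block, the members lay -0.04 from all genes as deposited and 0.03 after scaling. As deposited it was -0.38 without Irf8 cKO 1, -0.13 without Irf8 cKO 2 and -0.53 without Ctrl 2. Of the 4 libraries left out in turn, Ctrl 1 was the one without which the distance was near 0. That fit sets both libraries labelled Irf8 cKO against Ctrl 2 alone. A difference between the experiments and one of the library Ctrl 1 therefore cannot be told apart.

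**Figure D4:**
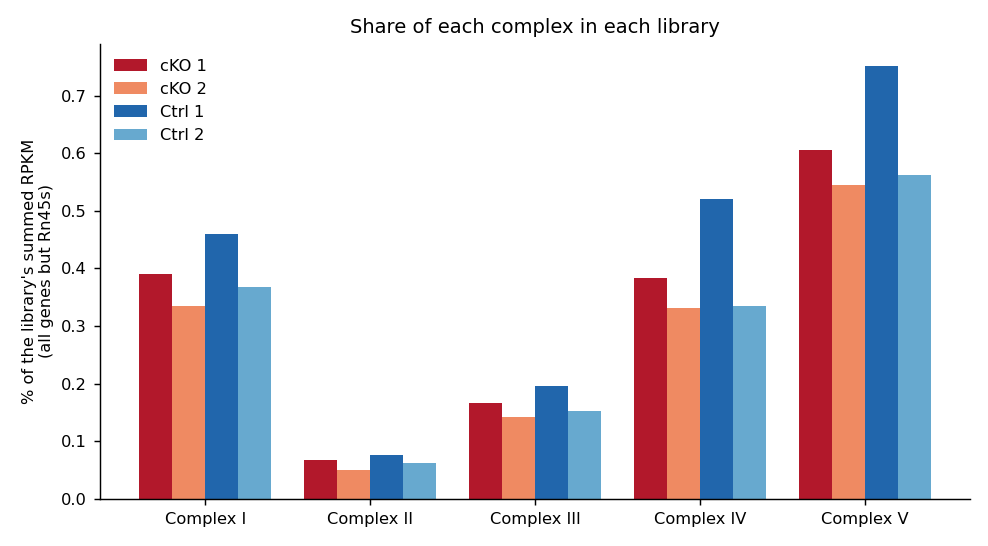
Share of each complex in the summed RPKM of each library, in percent of all genes but Rn45s (all members, tested or not, bars from 0). For complex IV the bars are 0.383% and 0.331% in the libraries labelled Irf8 cKO, against 0.521% and 0.335% in Ctrl, and in complex V too the bar of Ctrl 1 is the highest.

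Subunit genes are short, with a median transcript length of 809 bases, against 2992 bases over all tested genes, and short genes were lower in experiment 1. The 57 members of at most 1592 bases had a deposited median of -0.59 in experiment 1 and -0.59 in experiment 2, and other genes of that length -0.36 and -0.51. Among genes between 1592 and 2530 bases, 12 members had -0.45 and -0.81, and other genes -0.21 and -0.55. With the length trend of each experiment removed, the fitted median of the members was -0.17, 53 of 73 lay below 0 and 0 were called. By experiment, the members then lay -0.18 and -0.13 from all genes. Below 0 were 54 and 50 of 73, against 49.6% of all tested genes in each experiment. For complexes I to V the distances were -0.12, -0.29, -0.12, -0.32 and -0.20 in experiment 1. In experiment 2 they were -0.16, -0.09, -0.11, -0.09 and -0.14. Subunit genes are also abundant, with 38 of the 73 in the highest of 5 classes of mean RPKM (above 5.57). In experiment 1 these 38 had a deposited median of -0.60, against -0.33 for other genes of that class. In experiment 2 they had -0.67, against -0.73, so there they did not lie below other genes of their own level. Of lower level, 22 members between 3.08 and 5.57 RPKM had -0.56 in experiment 2, against -0.60 for other genes. Between 1.99 and 3.08 RPKM, 10 members had -0.81 in that experiment, against -0.50, so these did lie below other genes.

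**Figure D5:**
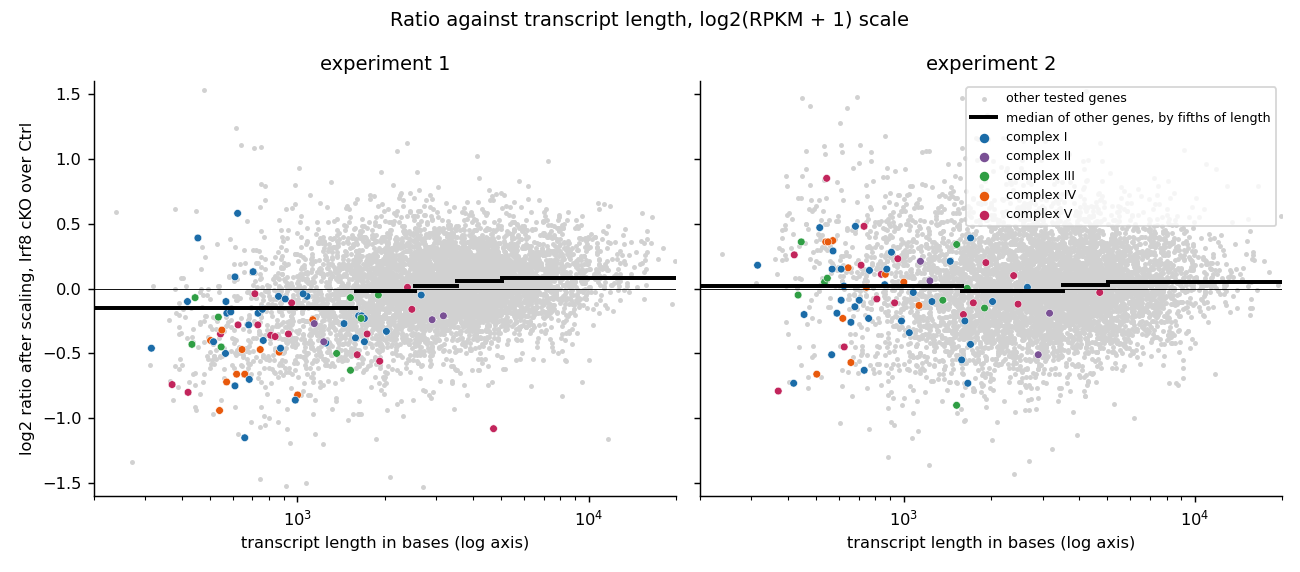
Log2 ratio after scaling (y axis) against transcript length in bases (x axis, log) in each experiment, with other tested genes in grey, members coloured by complex, and black bars at the median of other genes in 5 length classes of equal size. The axes leave out 69 genes. In experiment 1 the 57 members in the shortest class have a median of -0.36 and the other genes there -0.15, and in experiment 2 the values are 0.03 and 0.02.

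The authors' deposited table of each experiment also holds a log2 ratio and an unadjusted p-value from 1 library against 1. In the authors' deposited table, 8 members had p under 0.05 in experiment 1, all lower, where 4.64% of all tested genes did. They were Atp5e, Atp5g1, Cox6a1, Cox7b, Cox7c, Ndufa4, Ndufb6 and Ndufs8. In experiment 2 it was 1 member, Cyc1, where 3.61% of all tested genes did. The authors' deposited median log2 ratio was -0.41 for members and -0.04 for all tested genes in experiment 1, and -0.10 and -0.05 in experiment 2.

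Gene groups around the complexes were set beside the members (-0.64 as deposited and -0.19 after scaling) and all genes (-0.35 as deposited). Of 22 tested assembly factors, which build the complexes, 1 was called lower and 0 higher as deposited, against 1.09% and 0.0931% of all genes. It was Ndufaf2, an assembly factor of complex I, with 0.769 and 0.642 RPKM in the libraries labelled Irf8 cKO, against 1.98 and 2.22 RPKM in Ctrl (-0.86 ± 0.24, SE, adjusted p = 0.0356, limma). Ndufaf2 passed the filter only through Ctrl, so its low ratio is not independent of the filter. It was 1 of 2 such genes among the 22. The median of the group was -0.36, and -0.02 after scaling. Cox17, a copper carrier for complex IV and the most abundant of them, had 7.11 and 2.79 RPKM in the libraries labelled Irf8 cKO, against 15.1 and 7.84 RPKM in Ctrl (-1.11 ± 0.33, adjusted p = 0.0558).

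Of 19 tested genes of the tricarboxylic acid cycle and pyruvate dehydrogenase, 1 was called lower and 0 higher, against 1.09% and 0.0931% of all genes. Fh1, fumarate hydratase, had 2.89 and 1.73 RPKM in the libraries labelled Irf8 cKO, against 6.36 and 5.48 RPKM in Ctrl (-1.08 ± 0.30, SE, adjusted p = 0.0356, limma). Neither Ndufaf2 nor Fh1 passed after scaling (adjusted p = 0.327 and 0.230). The most abundant gene of the cycle, Mdh2, was at -0.43 as deposited and 0.07 after scaling. The median of the cycle was -0.44 as deposited. Medians of 30 mitochondrial carriers, porins and import genes were -0.49 as deposited and -0.15 after scaling, and those of 9 genes of glycolysis -0.48 and -0.16, with 0 called in either. From all genes, the carriers lay -0.16 in experiment 1 and -0.13 in experiment 2 as deposited, and glycolysis -0.22 and -0.26, so in experiment 2 both were at least as far off as the members (-0.12).

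Regulators of mitochondrial biogenesis (13 tested) had a median of -0.26 as deposited and 0.07 after scaling, with 0 called. Nrf1, whose motif was searched above, had 3.24 and 2.74 RPKM in the libraries labelled Irf8 cKO, against 3.27 and 2.97 RPKM in Ctrl. Tfam, which packs mitochondrial DNA and starts its transcription, had 1.70 and 0.807 RPKM in the libraries labelled Irf8 cKO, against 1.72 and 1.40 RPKM in Ctrl. The coactivators Ppargc1a and Ppargc1b did not reach 1 RPKM in any library.

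The cytosolic ribosomal proteins and the proteasome gave medians near that of the members. The 80 tested cytosolic ribosomal proteins were at -0.66 as deposited and -0.16 after scaling, and 36 proteasome subunits at -0.57 and -0.14. Against all genes, the subunit genes lay -0.38 off in experiment 1 and -0.12 in experiment 2, and cytosolic ribosomal proteins -0.49 and -0.12. The 65 mitochondrial ribosomal proteins, at -0.43 as deposited and -0.09 after scaling, lay closer to all genes. Each of these 3 families held 1 gene called lower as deposited, Rpl30, Psmb8 and Mrps27, where 1.09% of all genes were, and none of the 3 passed after scaling (adjusted p = 0.237, 0.217 and 0.225, limma). Mrps27 had 0.729 and 0.245 RPKM in the libraries labelled Irf8 cKO, against 2.16 and 1.58 RPKM in Ctrl. It passed the filter only through Ctrl, as 1 of 6 such genes among the 65, so its low ratio is not independent of the filter.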

How the data were processed

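The 4 GC B cell libraries were analysed. Another 4 samples, of B cells activated with lipopolysaccharide, were not analysed here. For each experiment the authors deposited RPKM of every RefSeq gene in both libraries, and the series design text names Wardrobe as the platform used. Beside these values, per the file headers, stand the authors' log2 ratio and p-value. Tools in the submitters' processing notes are TopHat2 2.0, Cufflinks 2.2, Cuffdiff and DESeq, the builds are mm10 and mm9, and no step is tied to either. An aligner for the RPKM was not given in the sources used here, and coordinates match mm10. Genes at 1 RPKM or more in both libraries of an experiment were compared with the authors' deposited log2 ratio. Adding 0.205 (experiment 1) or 0.721 (experiment 2) to their log2 ratio of RPKM matched it within 0.05 for 97.1% and 96.2%.

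Entries sharing a symbol (2 symbols of 23471 entries) were summed. The model was fitted with limma 3.58.1 in R 4.3.3 (lmFit, and eBayes with a variance trend, 2-sided) on log2(RPKM + 1), blocked by experiment with 1 residual degree of freedom, so ratios understate changes of low genes. The prior degrees of freedom were infinite as deposited, where SE and p come from the trend over genes, and 6.47 after scaling. Scaling is median-of-ratios over tested genes above 0 in all 4 libraries, with factors of 1.062 and 0.6548 for Irf8 cKO and 1.271 and 1.131 for Ctrl. The labels number the experiments, and deviations of same-numbered libraries from their group means correlated at 0.377 as deposited and 0.33 after scaling. The script was tested on simulated data. Tables and figures used matplotlib 3.10.9, pandas 2.3.3 and numpy 2.4.6 under Python 3.11.15.

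Members, gene lists and the rule for named genes (a core list, the markers, each complex's most abundant, lowest and highest member, and those past the threshold) were chosen with earlier results of these data known, and a gene of the core list is not reported here. Transcript lengths came from GENCODE transcripts of GRCm38 and covered 97.6% of entries, and promoters from the RefSeq table of GRCm38.p6. Of the 73 tested members, 26 have exons that overlap another gene's in GENCODE and 4 have pseudogenes named after them, so their values are uncertain. Alternatives covered scaling, block, pseudocount, filter, variance trend, length, single experiments and leaving out each library.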

Additional observations from a re-analysis of the deposited data

How the results depend on the processing

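Of the members tested, 2 were called lower with the experiment as a replicate block on the deposited RPKM. The count was 0 without the replicate block, without the filter on low values, with the length trend removed, and under both median-of-ratios scalings (over the tested genes, chosen after seeing the data, or over all genes above 0 in every library), with or without the block or the variance trend. It was 1 with a mean RPKM of at least 5, where 17 of 1488 genes were called lower. That filter left out Ndufb6 (mean of 2.92 RPKM), so its call was not tested there. Without the variance trend the count was 14, against 4.30% of all genes. Leaving out 1 library at a time, without the block, gave between 0 and 30. In these fits 1 group has a single library, which is assumed to vary like the others. Members called higher stayed at 0 in all of them. Calls lost under scaling came with fewer calls over all genes. The cause was not tested.

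The median log2 ratio of the members, -0.64, was -0.24 with scaling over all genes above 0 in every library and -0.19 with scaling over the tested genes, both also without the block or the variance trend. It was -0.16 with libraries scaled to their summed RPKM without Rn45s, -0.72 with a pseudocount of 0.1, -0.58 without the filter and -0.17 with the length trend removed. For experiment 1 alone it was -0.56 as deposited, and -0.38 and -0.33 under the 2 scalings, and for experiment 2 alone -0.06 and -0.03. Leaving out 1 library gave between -0.95 and 0.04. The distance of the members from all tested genes, -0.28, was -0.47 without the filter, where many genes near 0 pull the median of all genes up, -0.15 with a mean RPKM of at least 5, -0.17 with the length trend removed, and -0.04 in experiment 2 under either scaling. Leaving out 1 library gave between -0.53 and 0.03.

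No named gene that reversed had passed the test. With scaling over all genes above 0 in every library, over the tested genes, to summed RPKM without Rn45s, and with the length trend removed, the ratios became 0.06, 0.10, 0.13 and 0.20 for Atp5g2, 0.02, 0.07, 0.09 and 0.07 for Atp5g3, 0.21, 0.25, 0.28 and 0.41 for Atp5l, 0.26, 0.30, 0.32 and 0.42 for Ndufb7, and 0.10, 0.15, 0.17 and 0.21 for Uqcr11. Cox8a became 0.02, 0.05 and 0.03 in the last 3 of these settings, and Ndufa9 0.0022 with the length trend removed. The values under both scalings were the same without the block or the variance trend. Leaving out 1 library at a time reversed 22 of 34 named genes in some fit, all 22 of them without Ctrl 1 after scaling. Their ranges were -1.15 to 0.07 for Atp5a1, -1.06 to 0.09 for Atp5b, -0.81 to 0.54 for Atp5g2, -1.01 to 0.46 for Atp5g3, -0.76 to 0.82 for Atp5l, -1.01 to 0.20 for Atp5o, -1.11 to 0.07 for Cox4i1, -1.21 to 0.37 for Cox5a, -1.06 to 0.13 for Cox5b, -1.21 to 0.27 for Cox6a1, -1.05 to 0.51 for Cox8a, -1.29 to 0.13 for Ndufa4, -0.65 to 0.14 for Ndufa9, -0.50 to 0.47 for Ndufb7, -0.68 to 0.11 for Sdhb, -1.20 to 0.21 for Sdhc, -0.94 to 0.10 for Sdhd, -0.46 to 0.29 for Uqcr11, -0.95 to 0.13 for Uqcrc1, -0.99 to 0.07 for Uqcrc2, -1.07 to 0.01 for Uqcrfs1 and -1.10 to 0.16 for Uqcrh. Depth is unknown, so no counting error could be given for genes near 1 RPKM.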
